A study of Mus musculus with 8 samples.

Results

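The replication-dependent histone genes of the mouse were described in an atlas of accessible chromatin from induced pluripotent stem cells. They were taken as every protein-coding gene of the build GRCm38 (mm10) whose symbol is H2ac, H2bc, H3c or H4c followed by a number, or H1f1 to H1f6. This gave 63 genes of 21883 protein-coding genes: 6 for the linker histone H1, 17 for H2A, 16 for H2B, 12 for H3 and 12 for H4. The assay was ATAC-seq, which marks open chromatin through the insertions of Tn5 transposase, and the cells were a clonal iPSC line carrying FUCCI2, fluorescent reporters of the cell cycle. The study addressed chromatin as cells leave mitosis, with 2 libraries, A and B, in each of 4 groups. Mitotic cells were shaken off after nocodazole, a drug that blocks the spindle, had been present for 6 hours at 200 ng/ml; 2 further groups were released into fresh medium for 1 or 3 hours, and asynchronous cells received no drug. All cultures had irradiated feeder cells, serum, LIF and inhibitors of the kinases MEK and GSK3, and 50000 cells went into a library. The sources used here do not give whether feeder cells were removed or whether A and B were separate cultures.

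The atlas is 1 list of 76872 regions for all 8 libraries, each with a chromosome, a start and an end, and no value per library. It therefore shows where chromatin of the histone genes was open in at least some of the cells studied, and holds no comparison of the 4 groups. Sequencing depth is unknown. Places, shares and widths of regions are given below, with no test. The members were set beside all protein-coding genes as a description, with 95% Wilson intervals that cover counting error only and treat genes as separate although neighbours share regions.

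Nucleosomes wrap DNA around a core of H2A, H2B, H3 and H4, and H1 binds the linker DNA between them. Replication-dependent histone genes supply these proteins in S phase. They are short, lack introns as a rule, and lie in clusters on which the coactivator NPAT and processing factors assemble into the histone locus body. Their mRNAs end in a stem-loop bound by SLBP and not in a poly(A) tail. Their promoters are compact: H4 promoters carry a site bound by HINFP, H2B promoters an octamer bound by OCT1 (Pou2f1), and H1 promoters an upstream element called the H1 box.

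The bases between the start sites of H2A and H2B genes that face away from each other are shown first, because on these pairs a single region covered 2 promoters. In each line the interval is read towards the H2B gene, from the base after the H2A start to the base before the H2B start, and capitals mark the TATA box (TATAAA), the CCAAT box and the octamer ATTTGCAT or its form ATTTGAAT, on either strand. The intervals are those of H2ac15 and H2bc15 at chr13:21753913-21754075 on the plus strand, H2ac8 and H2bc8 at chr13:23571221-23571399 on the plus strand, H2ac12 and H2bc12 at chr13:22035644-22035820 on the plus strand, and H2ac7 and H2bc7 at chr13:23574208-23574380 on the minus strand. Sequences here and below are from RefSeq, GRCm38.p6.
H2bc15: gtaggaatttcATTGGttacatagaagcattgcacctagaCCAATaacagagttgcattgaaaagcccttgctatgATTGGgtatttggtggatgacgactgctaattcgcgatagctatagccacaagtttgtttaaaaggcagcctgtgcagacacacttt
H2bc8: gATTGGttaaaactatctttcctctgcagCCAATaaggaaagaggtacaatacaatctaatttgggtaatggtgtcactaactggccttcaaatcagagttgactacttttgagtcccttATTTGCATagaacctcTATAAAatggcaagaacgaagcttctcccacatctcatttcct
H2bc12: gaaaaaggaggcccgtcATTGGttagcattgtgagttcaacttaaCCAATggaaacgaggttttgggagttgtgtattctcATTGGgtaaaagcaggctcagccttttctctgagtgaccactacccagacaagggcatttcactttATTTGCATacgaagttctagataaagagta
H2bc7: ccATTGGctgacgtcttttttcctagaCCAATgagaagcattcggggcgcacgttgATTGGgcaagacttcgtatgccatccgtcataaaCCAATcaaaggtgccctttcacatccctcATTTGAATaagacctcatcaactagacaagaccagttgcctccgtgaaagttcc

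The 120 bases before the start site are shown for genes of the other types that differ in their regions. H3c2 had 1 region over its start and carries a pair of CCAAT boxes and a TATA box. H4c17 and H4c18 have nearly the same promoter, but a region covered the start of H4c18 and not that of H4c17. For H4c2 and H1f6 even the widest region in reach was narrower than for any other gene of their type, and H1f4 had a region over its start. Capitals mark the TATA box, the CCAAT box, the octamer (ATTTGCAT), the HINFP core GTCCGC and the H1 box AAACACA, on either strand. The stretches lie at chr13:23752225-23752344 (H3c2, plus), chr13:21811626-21811745 (H4c17, plus), chr13:21832198-21832317 (H4c18, minus), chr13:23756817-23756936 (H4c2, plus), chr13:23622559-23622678 (H1f4, minus) and chr13:23695691-23695810 (H1f6, plus).
H3c2: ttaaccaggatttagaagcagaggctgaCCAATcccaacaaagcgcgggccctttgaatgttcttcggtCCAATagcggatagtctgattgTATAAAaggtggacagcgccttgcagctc
H4c17: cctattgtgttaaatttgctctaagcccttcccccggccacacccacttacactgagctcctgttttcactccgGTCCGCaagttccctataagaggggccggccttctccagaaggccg
H4c18: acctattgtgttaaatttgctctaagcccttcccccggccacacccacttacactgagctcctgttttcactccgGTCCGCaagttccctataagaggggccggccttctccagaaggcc
H4c2: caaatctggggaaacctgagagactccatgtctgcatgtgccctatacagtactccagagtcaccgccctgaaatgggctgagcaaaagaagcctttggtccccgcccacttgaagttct
H1f4: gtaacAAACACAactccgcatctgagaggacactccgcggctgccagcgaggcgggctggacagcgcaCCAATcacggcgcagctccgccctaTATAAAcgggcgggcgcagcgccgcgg
H1f6: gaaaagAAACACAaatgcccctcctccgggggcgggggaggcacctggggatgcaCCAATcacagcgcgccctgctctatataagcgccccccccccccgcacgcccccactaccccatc

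The members fell into 3 clusters, where a cluster is a run of members with gaps of at most 500 kb. The first, at chr13:21715711-22043658, spans 327.948 kb and holds 22 members, 7 for H2A, 7 for H2B, 5 for H4, 2 for H3 and 1 for H1. The second and largest, at chr13:23531044-23934913, spans 403.87 kb and holds 31 members, with 5 of the 6 H1 genes. The third, at chr3:96219885-96270192, spans 50.308 kb and holds 10 members, none of them for H1.

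Every histone gene had an accessible region at it or within 1 kb of it. A region lay within 1 kb of 63 of 63 members (100%, interval 94.3 to 100%), against 73.6% of protein-coding genes. In 61 members a region touched the gene itself, and the only region of H1f6 lay 990 bp from the gene. A single region was in reach of 34 members, 2 regions of 27 members and 3 regions of 2 members, H4c18 and H2bc6. In all, 61 regions lay within 1 kb of a member, 0.0794% of the atlas. Their widths had a median of 597 bp (quartiles 415 to 922 bp), against 281 bp (152 to 498 bp) for the whole atlas, and 16.4% of them, against 3.75% of the atlas, were at least 1 kb wide. In the second cluster and the third, 86.8% and 80% of the regions inside the cluster lay within 1 kb of a member. In the first cluster this share was 31.7%.

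**Figure D1:**
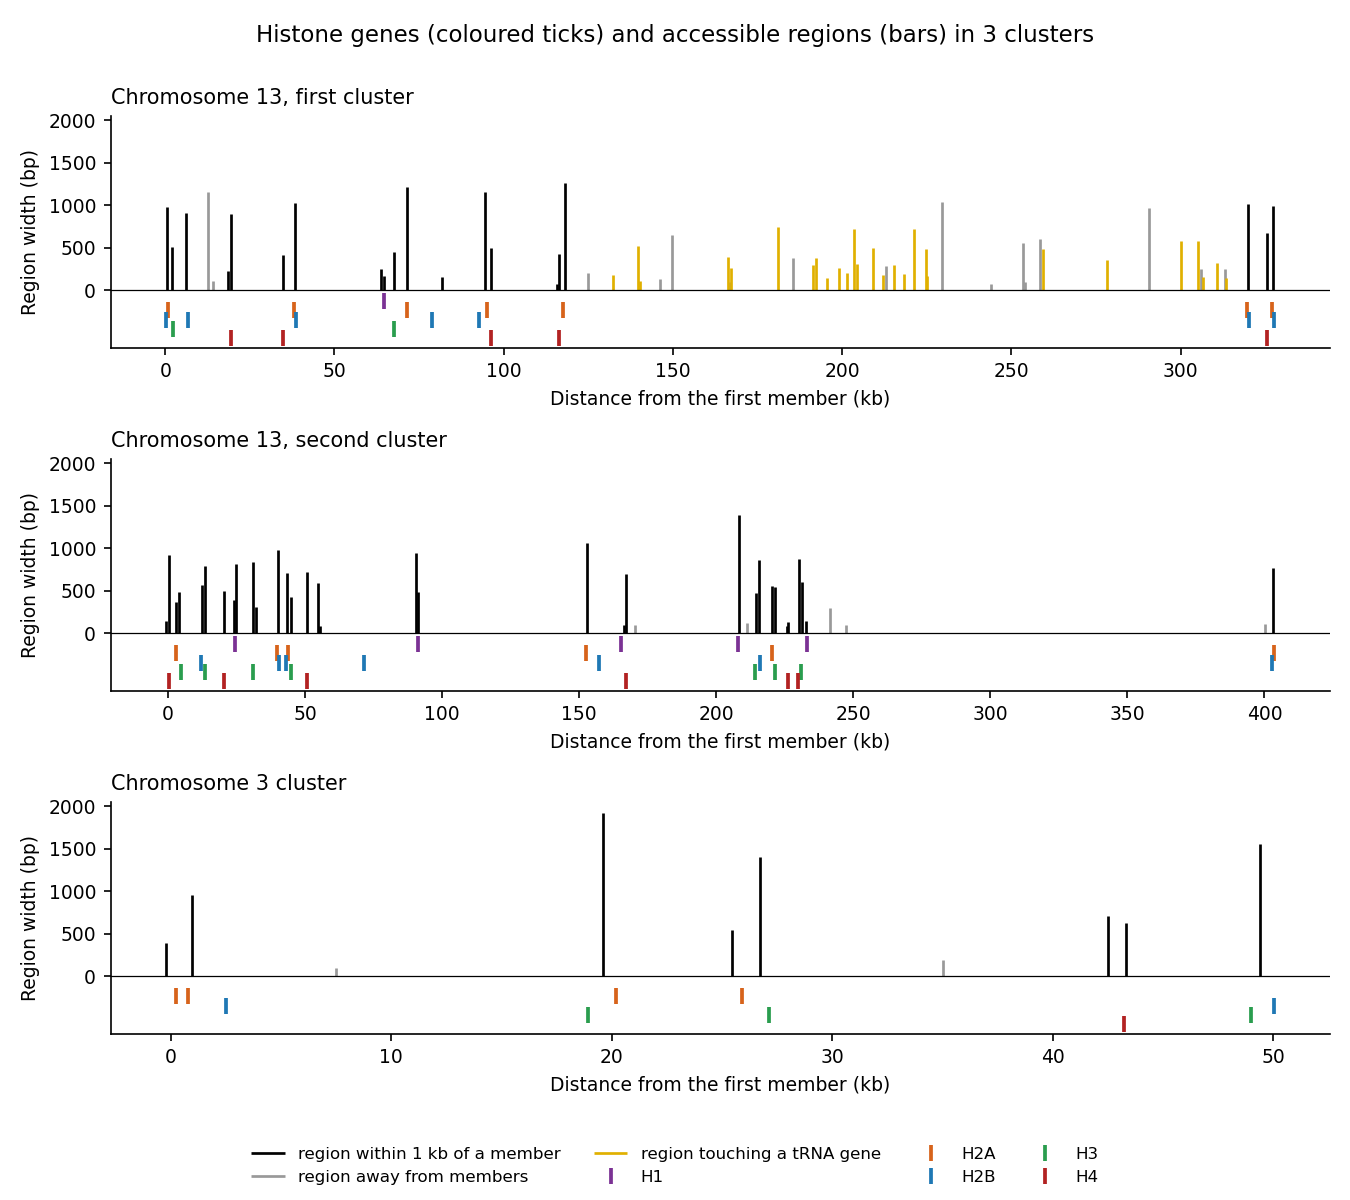
Histone genes and accessible regions along the 3 clusters. The x axis is the distance in kb from the first member, bar height is region width in bp (black within 1 kb of a member, grey or yellow farther away, yellow touching a tRNA gene), and coloured ticks below mark members by type. Black bars stand above most ticks in the second cluster and the third, while the first holds a block of 182.152 kb with tRNA genes and no member.

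Start sites were covered more often than those of other genes, and far ends much more often. Strand, needed to tell the ends apart, was listed for 58 members and 17491 protein-coding genes. A region covered the start site itself in 53 of 58 members (91.4%, interval 81.4 to 96.3%), against 53.3% of protein-coding genes. By type these were 14 of 14 H2B, 10 of 10 H3, 16 of 17 H2A, 9 of 11 H4 and 4 of 6 H1 genes. A region covered the far end of 18 of 58 members (31%, interval 20.6 to 43.8%), against 1.05% of protein-coding genes. The far end was covered in 7 of 11 H4, 3 of 6 H1 and 6 of 17 H2A genes, but in 1 of 14 H2B and 1 of 10 H3 genes. Start and far end were both covered in 17 members.

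The regions took in much of the gene bodies. The median member had 76.8% of its length inside regions, and the median protein-coding gene 1.38%. More than 50% of the gene was inside regions for 45 of 63 members, against 0.443% of protein-coding genes, so that members made up 45 of the 97 such genes. The median was 100% for H4, 84.2% for H2A, 76.2% for H3, 47.2% for H2B and 41.8% for H1. Members are short, with a median length of 492 bp, against 17170 bp for protein-coding genes, and the part of length in this measure was not tested. Set beside other short genes, 41 of 50 members of at most 1 kb with a covered start were more than 50% inside regions, against 10 of 46 other protein-coding genes of at most 1 kb with a covered start. Their medians were 82.7% and 31.3% of the gene, the far end was covered in 17 and 3 genes, and the median widest region was 934 and 529 bp. Of the other 1519 genes of at most 1 kb, 971 were olfactory or vomeronasal receptor genes, and only those with a covered start entered this comparison.

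**Figure D2:**
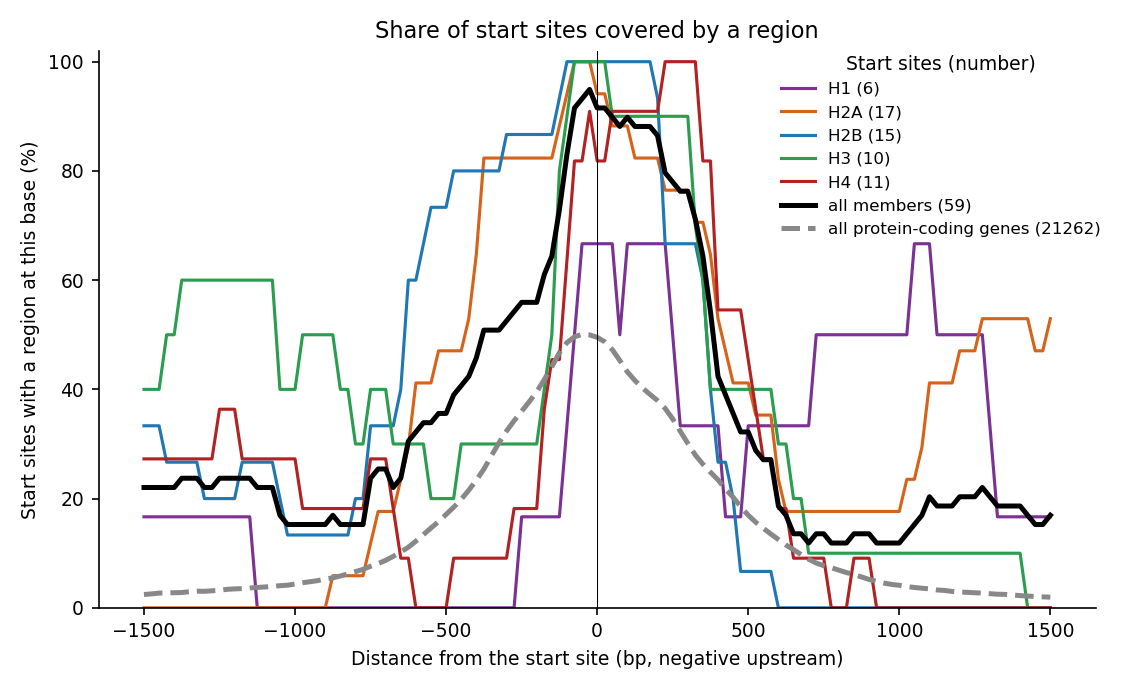
Share of start sites (y axis, %) with a region at each base from 1500 bp upstream to 1500 bp downstream (x axis, bp), for each histone type, all 59 member start sites and all protein-coding start sites (dashed grey). At 300 bp upstream the H2A and H2B lines stand at 82.4% and 86.7% while the H1 line stands at 0%; at 300 bp downstream the H4 line stands at 100%.

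The side on which the region extended differed among the histone types. At 300 bp upstream of the start, a region was present at 82.4% of H2A and 86.7% of H2B starts but at 30% of H3, 9.09% of H4 and 0% of H1 starts, and at 52.5% of all member starts, against 32.4% of protein-coding starts. At 300 bp downstream it was present at 100% of H4, 90% of H3, 76.5% of H2A, 66.7% of H2B and 33.3% of H1 starts, and at 76.3% of all member starts, against 30.1% of protein-coding starts. The centre of the nearest region lay a median of 149.5 bp downstream of H4 starts, 89.25 bp downstream of H3 starts and 166.5 bp downstream of H1 starts. For H2A and H2B the medians were -35.5 and -140.5 bp, on the upstream side, where the partner gene of a divergent pair lies. Among the 31 regions that covered the start of a single member, leaving aside a distant second start of H2bc6, the part downstream was a median of 391 bp and the part upstream 157 bp, and the downstream part was the longer in 22. For H4 it was longer in 8 of 9 such regions, with medians of 493 bp downstream and 157 bp upstream. For H3 and H1 it was longer in 6 of 8 and 3 of 4. For H2A and H2B it was longer in only 3 of 6 and 2 of 4. The H2A and H2B medians were 394.5 and 383.5 bp downstream, and 433 and 352 bp upstream. Some of the 31 may cover a second gene's start. The region of H2ac24 also covered the start of the non-member H4bc24. Those of H2ac6 and H2ac20 touched H2bc4 and H2bc21, whose strand is not listed.

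Widths differed between members as well. The widest region within 1 kb of a member had a median width of 946 bp (quartiles 707 to 1045.5 bp, range 90 to 1923 bp), against 671 bp (455 to 890 bp) for protein-coding genes with a region. The medians were 992 bp for H2A, 980 bp for H2B, 852.5 bp for H3, 713.5 bp for H4 and 533.5 bp for H1. They were 1004.5 bp in the first cluster, 787 bp in the second and 1398 bp in the third. The widest region in reach can be one over a neighbour. H3c10 took the 984 bp of H2ac13 and H2bc13, with 504 bp over its own start. Regions over the start of a single member had medians of 755 bp for H2A (6 regions) and 727 bp for H2B (4). For H3 this median was 496 bp (8 regions), for H4 691 bp (9) and for H1 441 bp (4). The width went with the number of listed member starts beneath a region. The 11 regions over 2 such starts had a median of 1017 bp (702 to 1923 bp). The 32 over 1 had 580.5 bp, and the 18 over none 233.5 bp. Starts of members without a listed strand could not be counted, so some regions stand in too low a class. The 625 bp region over the whole of H4c14, for example, is counted among the 18. Regions over a start of any protein-coding gene had a median of 689 bp (8902 regions), against 770 bp for the 43 over a member start.

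**Figure D3:**
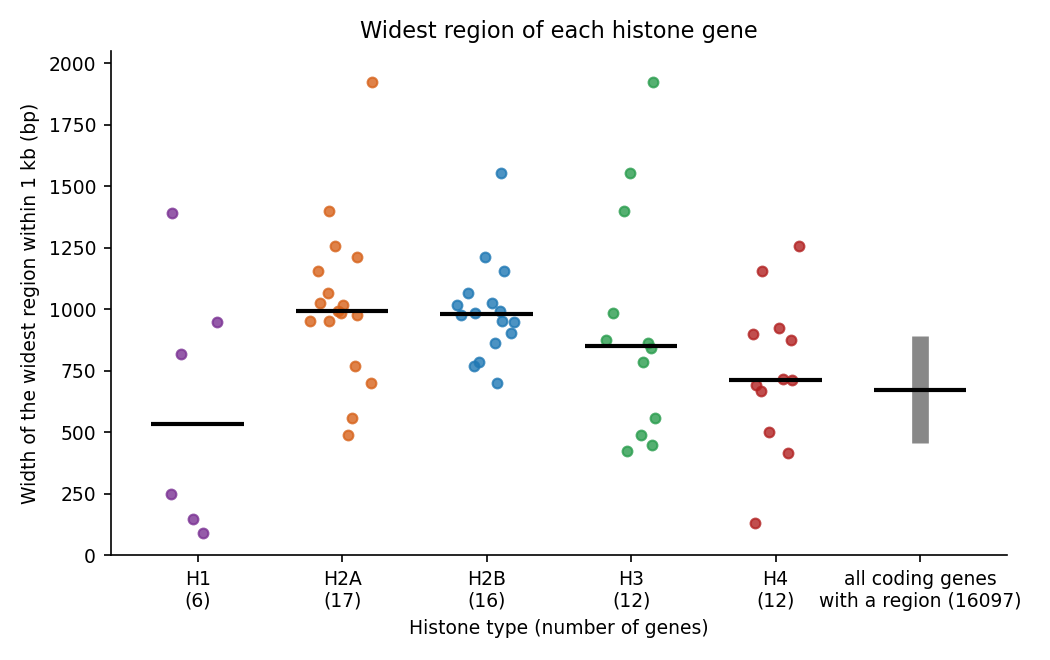
Width in bp (y axis) of the widest region within 1 kb of each of the 63 histone genes, by type (x axis); points are genes and lines are medians. The last column shows the median (671 bp) and quartiles (455 and 890 bp) of 16097 protein-coding genes with a region. H2A and H2B points lie at 488 bp or more, and H1 points spread from 90 to 1390 bp.

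H2A and H2B, which form a dimer in the nucleosome, were paired in the genome and under the regions. The 9 divergent pairs of members with starts within 1 kb of each other were all an H2A and an H2B gene, and in 9 of 9 a single region covered both starts, against 82.2% of 797 such pairs of protein-coding genes. The starts lay 164 to 281 bp apart, and among other divergent pairs at these distances 130 of 151 (86.1%) had both starts in 1 region. The count thus lies near that of other close divergent genes. These regions were 702 to 1213 bp wide (median 992 bp; mean 981.9 ± 162 bp, SD over 9 pairs). They reached a median of 402 bp into the H2A side and 366 bp into the H2B side, counted from each start.

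The narrowest of these regions, 702 bp, lay over H2ac7 and H2bc7, and held 59.1% of the H2A gene and 47.5% of the H2B gene. The 976 bp region of H2ac8 and H2bc8 held all of H2ac8 (100%) and 46.8% of H2bc8, and the 1017 bp region of H2ac12 and H2bc12 was placed alike, with 100% and 43.6%. Regions of 984, 992 and 1026 bp over H2ac13 and H2bc13, H2ac11 and H2bc11, and H2ac15 and H2bc15 held 76.8 to 92.5% of each gene. At H2ac22 and H2bc22 (1213 bp) and at H2ac23 and H2bc23 (1157 bp) the H2A gene was 100% and 73% inside. The annotated spans of H2bc22 and H2bc23 are 14079 and 3788 bp, so only 2.81% and 15.5% of them were inside. The pair H2ac1 and H2bc1, which encodes testis histones TH2A and TH2B, differed from the others: its 770 bp region held 100% of H2bc1 and 6.92% of H2ac1, and ended 32 bp past the H2ac1 start.

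**Figure D4:**
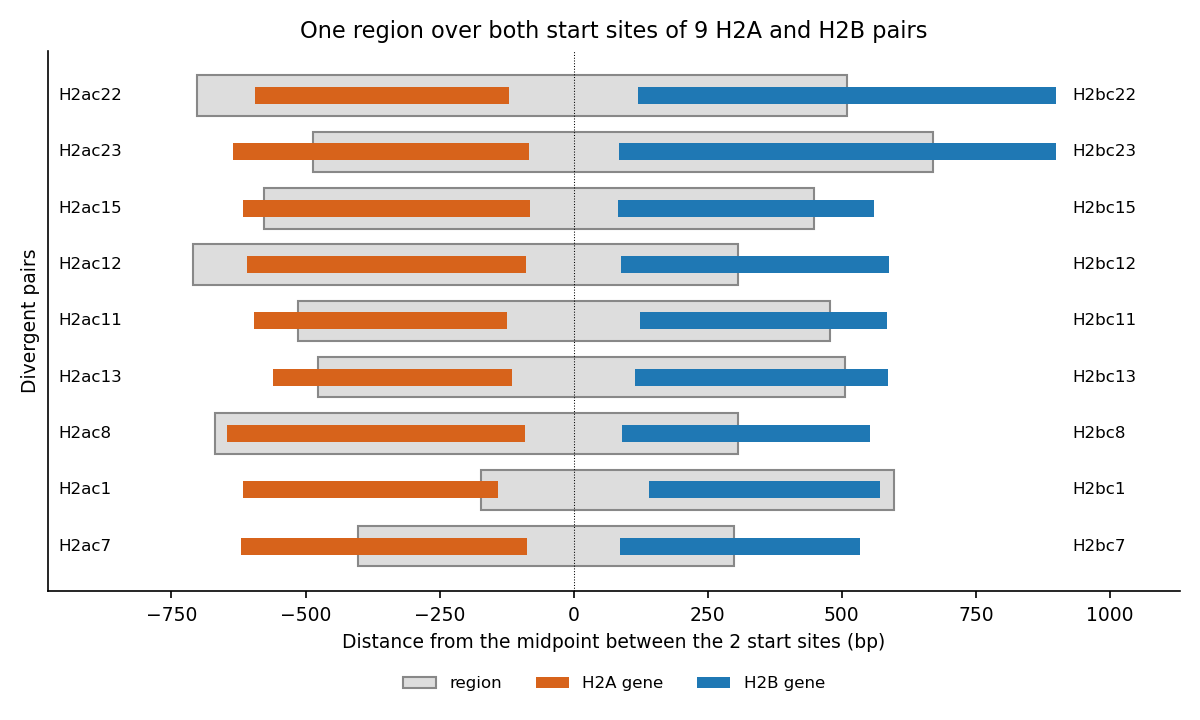
The 9 divergent H2A and H2B pairs, ordered by region width with the widest at the top; the x axis is the distance in bp from the midpoint between the start sites, grey boxes are accessible regions and coloured bars are genes (H2bc22 and H2bc23 run past the drawn edge). In each pair the grey box spans both starts, and for H2ac1 it ends 32 bp past the start of the H2A gene.

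Other neighbouring H2A and H2B genes shared regions as well. Of 12 neighbouring pairs of these types, 11 shared a region; H2ac6 with H2bc4 (1065 bp) and H2ac20 with H2bc21 (952 bp) shared one although the strand of the H2B gene is not listed. The exception was H2bc3 and H2ac4, which are tandem and 3864 bp apart. Over all 57 neighbouring pairs of members, 26 (45.6%, interval 33.4 to 58.4%) had 1 region within 1 kb of each gene, against 10.5% of neighbouring protein-coding pairs. Where strands are listed, the starts of member pairs lay a median of 2772 bp apart, against 40512 bp. The part of spacing was not tested. By orientation the sharing pairs were 10 of 12 divergent, 10 of 22 tandem and 2 of 13 convergent pairs, and 4 of 10 pairs without a listed strand. Over all protein-coding genes, 28% of divergent, 5.79% of tandem and 5.31% of convergent pairs shared a region. Tandem pairs at most 2 kb apart shared a region in 10 of 11 cases, against 336 of 800 other protein-coding pairs. Their starts are closer, with a median of 1278 bp against 13512 bp in the other pairs. Where the gap is below 1 kb, a region over the gene end that faces the gap is in reach of both genes by definition. Some of the 10 shared regions touched only 1 gene, as at H2ac7 and H3c4, and others touched both, as at H2ac18 and H3c14. Of all 57 neighbouring pairs, 15 had a region that touched both genes. A single region over both starts of such a tandem pair occurred in 2 of 11 member pairs and in 0 of the 800 others. The tandem pair without a shared region was H4c9 and H2ac11.

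These 2 tandem pairs carried the widest regions of the histone genes, and both lie in the cluster on chromosome 3. A region of 1923 bp at chr3:96238537-96240459 covered the starts of H3c15 and H2ac19. A region of 1555 bp at chr3:96268510-96270064 covered those of H3c13 and H2bc18. The third widest, 1398 bp at chr3:96245919-96247316, covered the start of H3c14 and touched H2ac18, whose own start lay under a separate region of 544 bp. A region of 1390 bp over H1f2 came next, in reach of no other member. Of regions shared by neighbours, the next widest were 1258 bp over the start of H2ac24, within 1 kb of H4c18, and the 1213 bp of H2ac22 and H2bc22.

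H3c15 with H2ac19 and H3c14 with H2ac18 are near copies of each other in opposite orientation. Their H3 promoters share an unbroken stretch of 231 bases and their H2A promoters one of 219 bases, of 300 compared. The same 4 promoters have the highest GC content of all members, 63.7 to 72.7%, against a member median of 45.3%. Despite this likeness, 1 copy had a single region of 1923 bp and the other regions of 544 and 1398 bp. The sources used here do not give how reads that match more than 1 place were treated, and the part of such reads in these widths was not tested. The rest of the cluster comprised H2ac21, with a 391 bp region ending 25 bp upstream of its start, and H4c14, with regions of 712 and 625 bp.

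A similar copy lies in the first chromosome 13 cluster. H2bc23, H2ac23 and H4c17 follow each other there, and H4c18 and H2ac24 lie in the reverse order beside H4bc24, whose older name, Hist1h2br, is that of an H2B gene. The H4c17 and H4c18 promoters share 285 unbroken bases, and those of H2ac23 and H2ac24 share 200. The regions over the H2A starts were 1157 and 1258 bp wide, in the order of these genes, and those at the H4 genes 494 and 423 bp. The 494 bp region began 38 bp downstream of the H4c17 start, while the 423 bp region covered the start of H4c18. Among 355 pairs of promoters of the same type the longest shared stretch had a median of 9 bases, and it exceeded 50 bases in 5 pairs: these 4 and H4c11 with H4c12 (72 bases).

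The remaining members of the first cluster had regions of 669 bp (H4c9), 902 bp (H2bc14, a region that also touched the pseudogene H2ac14), 898 and 219 bp (H4c11), 415 bp (H4c12), 504 bp (H3c10) and 449 bp (H3c11). H3c10 was also in reach of the 984 bp region of H2ac13 and H2bc13. H2bc22 had a second region of 153 bp inside its long span.

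In the second cluster the widest and narrowest values of each core type were as follows. Among H2A genes, H2ac6 had 1065 bp and H2ac10 488 bp, a region over the start of H3c8, beside 366 bp over its own start. Among H2B genes, H2bc4 had the same 1065 bp region and H2bc7 had 702 bp. For H3 they were 874 bp (H3c1, a region that covered the start of H4c1, beside a 597 bp region on H3c1 itself) and 423 bp (H3c4). For H4 they were 922 bp (H4c8) and 133 bp (H4c2).

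The 5 members whose start was not covered were H1f5, H1f6, H2ac21, H4c2 and H4c17. Except for H1f6 the nearest region ended or began close by. At H4c2 a region of 80 bp ended 11 bp upstream of the start and another of 133 bp lay inside the gene. At H1f5, a 171 bp region began 79 bp downstream of the start, and one of 248 bp lay beyond the far end. Of the 58 members with a listed strand, 57 had a region within 100 bp of the start.

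The linker histone genes were the most uneven type. H1f2, H1f3 and H1f4 had regions over start and far end. These were 1390 bp over the whole of H1f2, 395 and 819 bp at H1f3, and 487 and 946 bp at H1f4. The 946 bp region of H1f4 also covered the distant, upstream one of the 2 listed starts of H2bc6. H1f1 had a single narrow region, which reached 89 bp upstream and 57 bp downstream of its start. H1f5 is described above. H1f6 encodes the testis-specific H1t, and its single region of 90 bp lay outside the gene, centred 1768.5 bp downstream of its start and also in reach of H4c3. Thus 3 of the 6 H1 genes had no region wider than 248 bp, a width below the atlas median of 281 bp; of the 57 core histone members only H4c2 had none above that median.

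**Figure D5:**
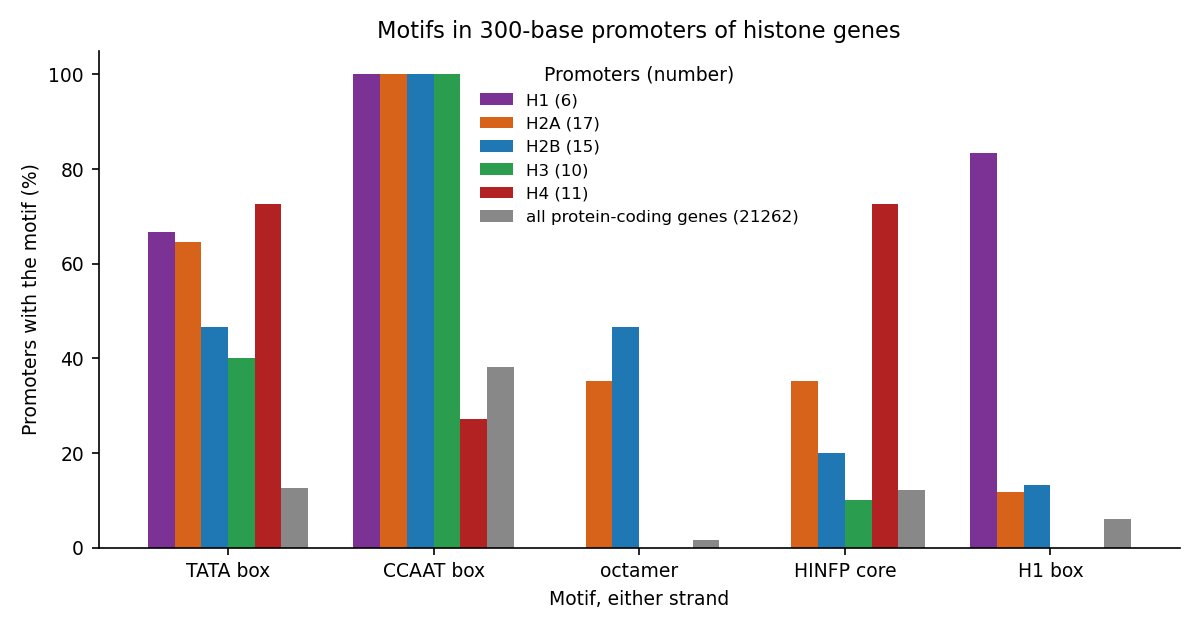
Share of promoters (y axis, %) that hold each of 5 motifs (x axis) on either strand, in the 300 bases from 250 before to 50 after the start, by histone type and, in grey, for all 21262 protein-coding start sites. CCAAT is at 100% in H1, H2A, H2B and H3 and at 27.3% in H4; the HINFP core is highest in H4 (72.7%) and the H1 box in H1 (83.3%).

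Promoter sequence, which took no part in choosing the members, differed by histone type. The promoters of 59 member starts were searched on both strands, in the 300 bases from 250 before to 50 after the start, and set beside 21262 starts of protein-coding genes. No motif contains another, although matches can overlap. CCAAT, the core bound by NF-Y, was in 51 of 59 member promoters (86.4%), against 38.2% of all. It was in 6 of 6 H1, 17 of 17 H2A, 15 of 15 H2B and 10 of 10 H3 promoters but in 3 of 11 H4 promoters. GTCCGC was in 8 of 11 H4 promoters, in 18 of 59 overall (30.5%), against 12.1% of all. AAACACA was in 5 of 6 H1 promoters, H1f1 being the exception, and in 9 of 59 overall (15.3%), against 6.15%. TATAAA was in 34 of 59 (57.6%), against 12.6%; it began 20 to 40 bases before the start in 11 member promoters (18.6%), against 2.53%, and in 4 of the 6 H1 promoters.

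The octamer ATTTGCAT was in 7 of 15 H2B and 6 of 17 H2A promoters and in none of the other types, 13 of 59 in all (22%), against 1.66% of all promoters. A form with a single other base, ATTTGAAT (C6A, counted from 1 at the 5′ end), was noticed in the printed intervals and counted afterwards. It was in 7 of 15 H2B and 5 of 17 H2A promoters, and in 1.1% of all. Either form was in 13 of 15 H2B and 11 of 17 H2A promoters, against 2.68% of all. H2A and H2B promoters of a pair hold partly the same bases, so these counts are not independent.

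In the 8 divergent intervals short enough to be read whole, 163 to 248 bases long, CCAAT occurred 2 to 5 times in each. ATTTGCAT lay in 2 of them (H2ac8 with H2bc8, H2ac12 with H2bc12), ATTTGAAT in 4, and TATAAA in 2. The interval of H2ac15 and H2bc15 holds 3 CCAAT boxes and neither octamer, and its region of 1026 bp was wider than the 976 bp of H2ac8 and H2bc8, which holds CCAAT, octamer and TATAAA. H4c2 and H4c8 hold none of the 5 motifs in their promoters, and had widest regions of 133 and 922 bp. H1f6, with a CCAAT box and an H1 box, had no region over its start, while H1f3 and H1f4, with both and a TATA box, each had one. The other H1 genes went differently. H1f5 holds the same motifs as H1f4 and its start was not covered. H1f2, like H1f6, holds a CCAAT box and an H1 box without TATAAA, and its start was covered. H1f1, with a CCAAT box and a TATA box, had its start covered. Member promoters had a median GC content of 45.3%, against 56.3%, and a median ratio of observed to expected CpG of 0.746, against 0.567. Promoters of H2bc21, H4c14, H3c7, H2bc4 and H3c1 were not analysed here.

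Genes of 3 related lists mostly had a region at their start, but in most of them regions took up a small part of the gene. Of 15 genes for replication-independent variants, 14 had a region within 1 kb (73.6% over all protein-coding genes), the widest at H3f3a (1453 bp) and H3f3b (1306 bp), which encode H3.3; the oocyte linker histone gene H1f8 had none. Starts were covered in 10 of 14 with a listed strand (53.3% over all protein-coding genes). Only H2bu2 had more than 50% of the gene inside regions. Its older name, Hist3h2ba, is of the kind borne by clustered histone genes, so its place in this list is uncertain. All 19 genes for transcription and processing of histone mRNA had a region, led by Pou2f1 (1219 bp) and Ncbp1 (1155 bp, a cap-binding protein). Npat had 971 bp and Slbp 894 bp. All 20 genes for histone chaperones and supply had one, led by Hira (1808 bp) and Nasp (1590 bp). Starts were covered in 14 of 14 and 19 of 19 genes of these lists with a listed strand. The far end was covered in 0 genes of each list, against 1.05% of all protein-coding genes. The median genes of the lists had 5.16%, 2.82% and 2.45% of their length inside regions. This share was 1.38% for all protein-coding genes and 76.8% for the histone clusters. Median lengths were 2436, 17679 and 23742.5 bp in the lists, against 492 bp for members, and the part of length was not tested.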

How the data were processed

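ATAC-seq was made from 8 libraries in 4 groups of 2. The authors deposited 1 list of regions with a chromosome, a start and an end, and no other value. Per the submitters' processing notes, cutadapt, Bowtie2, Picard, SAMtools, bedtools and MACS2 2.1.1 were used on GRCm38 (mm10); the sources used here do not give parameters, Tn5 shift, blacklist or merging of libraries. The labels name total RNA and a transcriptomic source, against their titles and protocol, which were followed.

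Regions were joined to RefSeq gene spans of GRCm38.p6 (1-based, at least 1 bp of overlap) with Python 3.11.15, pandas 2.3.3 and numpy 2.4.6; strand and promoters came from the RefSeq promoter table. The overlap code was tested on simulated data. The planned edgeR comparisons of groups were not made because the file holds no counts. Alternatives changed the reach, the regions kept, the overlap, the distance to a gene end and the promoter window. Genes named in the text were all H1 genes, all members outside the largest cluster, the extremes of each core type within it, the widest shared pairs, and the extremes of each list; other names were picked with their values in view. The members, lists and tests were chosen with earlier results of these data known.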

Additional observations from a re-analysis of the deposited data

How the results depend on the processing

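Of 59 alternative values, 52 stayed within 1.5 times the reported count, or, for medians, within 1 SD. Without any reach, 15 neighbouring pairs of members shared a region, against 26 within 1 kb. A far end lay within 100 bp of a region in 32 members and within 250 bp in 47, against 18 covered. Of the other coding genes inside the clusters, 3 had a region of at least the length of nucleosomal DNA and 3 one of at least the atlas median width, against 5. Either form of the octamer, chosen after seeing the data, was in 24 member promoters, against 13 with ATTTGCAT. Among protein-coding genes no longer than the longest member, 64.9% had a region, against 73.6%. This share, neither a count nor a median, was not among the 52 although it lies within 1.5 times the reported value. The cause was not tested in these cases. No paired analysis was possible because no region has a value for a single sample. Depth per library is unknown, a region open in a single library counts like one open in all, and near copies of histone genes could share reads.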

Other observations

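Inside the clusters lie 10 other protein-coding genes. Of these, 5 had a region within 1 kb, against 73.6% of all protein-coding genes: H4bc24 (the 1258 bp region over the H2ac24 start), Zfp184 (1037 bp), Prss16 (966 bp), Hfe (100 bp) and Trim38 (92 bp). Pom121l2, Slc17a1, Slc17a2, Slc17a3 and Slc17a4 had none; the Slc17a genes encode phosphate transporters of kidney and other tissues, and lie in the second cluster between H1f1 and H2bc1.

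Members split around a block of tRNA genes. In the first cluster, the 201.646 kb between H2ac24 and H2ac12 hold no member, and tRNA genes there span 182.152 kb. A region touched 27 of the 31 tRNA genes of this cluster (87.1%), against 265 of 408 tRNA genes of the genome (65%). Away from members the 3 clusters held 43, 5 and 2 regions, with a median of 275.5 bp over all 50.

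Other genes with older Hist names, outside the symbols used here, had regions over differing parts of the gene. H4f16, an H4 gene on chromosome 6, lay 100% inside a 986 bp region. H2bu2 on chromosome 11 had 85.9% of its length inside a region of 712 bp, and H2aw 62.4% inside one of 904 bp that also held 89.2% of the pseudogene H2bu1-ps. H4bc24, with a span of 3788 bp, had 16.1% inside. Of the pseudogenes, H2ac14 had 89.7% and H2af-ps2, with a span of 2983 bp, 20.9%.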
